A study of Mus musculus with 36 samples.

Results

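Bdh1, Bdh2, Acat1 and Sirt3 are 4 of the 38283 genes in a table of liver transcript counts, and they were taken by gene symbol because they code for enzymes of ketone body metabolism and for a mitochondrial deacetylase that acts on such enzymes. All 4 passed the filter on low counts, which kept 13945 genes. They were measured in 36 male C57Bl/6J mice of 16 weeks, 6 in each of 6 groups. Mice were wild-type (WT) or heterozygous for a germline knock-in of the Y657* nonsense allele of Pik3r1 (WT/Y657*, called MT in the labels), and the labels name no other allele or agent. Livers were taken from mice on ad libitum chow (fed), after a 16 h fast (fasted) or after that fast and 6 h of refeeding with chow (refed). Pik3r1 codes for regulatory subunits of phosphoinositide 3-kinase, the kinase through which insulin acts, and since the allele is carried in every tissue, effects of the allele within the liver and effects through other organs cannot be told apart.

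During a fast the liver oxidises fatty acids to acetyl-CoA in its mitochondria and turns part of it into acetoacetate and β-hydroxybutyrate, the ketone bodies, which other organs burn as fuel. Acat1 is the mitochondrial thiolase that joins acetyl-CoA units into acetoacetyl-CoA, and Bdh1 is the mitochondrial dehydrogenase that interconverts acetoacetate and β-hydroxybutyrate. Bdh2 is a cytosolic dehydrogenase that was named for activity on β-hydroxybutyrate and has also been linked to the making of a mammalian siderophore, an iron-binding molecule. Sirt3 is not itself an enzyme of the pathway. It is the main NAD-dependent deacetylase of mitochondria, and enzymes of fat oxidation are among its known targets.

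The loci given with the counts fall on the mouse assembly GRCm38. Bdh1 (ENSMUSG00000046598) lies at chr16:31422280-31458901 on the plus strand, Bdh2 (ENSMUSG00000028167) at chr3:135281221-135304426 on the plus strand, Acat1 (ENSMUSG00000032047) at chr9:53580522-53610382 on the minus strand and Sirt3 (ENSMUSG00000025486) at chr7:140863666-140882309 on the minus strand. Exons of Bdh1 share 533 bases with the antisense gene Gm15743, which had 0 to 3 counts in a library. Exons of Sirt3 share 418 bases with Ric8a and 342 bases with Psmd13 on the opposite strand. The strand setting of the counting is not given in the sources used here. Neither neighbour of Sirt3 was called between fasted and fed mice of either genotype. Psmd13 was higher in refed than in fasted mice, by 0.38 on the log2 scale in WT and 0.19 in WT/Y657* mice, which is the direction opposite to that of Sirt3.

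RefSeq promoter windows of 300 bases (250 before the annotated start to 50 after it, GRCm38.p6) matched 3 of the 4 genes. Those of Bdh1 and Bdh2 are shown because these dehydrogenases had the lowest levels in fasted WT/Y657* mice relative to fasted wild-type mice. Of these differences only that of Bdh1 was called. Bdh1 has 2 starts with their own window, and capitals mark the motif matches found.
Bdh1 upstream start, chr16:31422047-31422346, plus strand: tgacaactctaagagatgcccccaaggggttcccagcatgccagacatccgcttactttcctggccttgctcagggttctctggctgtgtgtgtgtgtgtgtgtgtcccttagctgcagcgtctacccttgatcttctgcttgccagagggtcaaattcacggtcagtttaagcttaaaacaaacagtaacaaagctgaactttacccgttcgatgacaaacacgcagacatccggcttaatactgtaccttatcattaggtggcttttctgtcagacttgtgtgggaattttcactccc
Bdh1 downstream start, chr16:31428503-31428802, plus strand: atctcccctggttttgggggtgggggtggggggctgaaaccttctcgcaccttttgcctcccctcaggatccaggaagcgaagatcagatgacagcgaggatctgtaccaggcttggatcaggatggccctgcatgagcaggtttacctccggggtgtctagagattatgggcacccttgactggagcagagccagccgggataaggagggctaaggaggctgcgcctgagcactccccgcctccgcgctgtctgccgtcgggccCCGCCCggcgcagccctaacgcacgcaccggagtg
Bdh2, chr3:135280971-135281270, plus strand: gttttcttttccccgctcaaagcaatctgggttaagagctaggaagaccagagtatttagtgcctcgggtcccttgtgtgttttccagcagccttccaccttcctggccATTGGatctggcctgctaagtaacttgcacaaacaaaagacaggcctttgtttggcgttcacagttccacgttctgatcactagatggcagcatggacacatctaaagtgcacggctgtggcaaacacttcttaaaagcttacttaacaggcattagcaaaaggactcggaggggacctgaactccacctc
The 2 windows of Bdh1 differ in base composition, with 48.3% G or C in the upstream and 63.7% in the downstream window, against a median of 53.0% over all 32544 windows. Both strands were searched for the nuclear receptor half-site AGGTCA, the forkhead site GTAAACA, the cyclic AMP response element half-site TGACG, the E-box CACGTG, the GC box GGGCGG and the CCAAT box CCAAT. No match overlapped another in these windows. The motifs occur in 16.2%, 3.66%, 20.9%, 7.17%, 35.9% and 37.4% of all windows, in that order. The upstream window of Bdh1 held none of them, and the downstream window held 1 GC box, read on the minus strand. The window of Bdh2 held 1 CCAAT box, read on the minus strand. Of the 2 windows of Sirt3, 1 held 4 GC boxes and a CCAAT box and the other held 1 cyclic AMP response element half-site. A match or its absence describes these letters only.

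Libraries held between 8839488 and 19542775 counts. The hepatocyte marker Alb ranged from 30026 to 69947 CPM (counts per 1000000 of a library's scaled total) over the 36 livers, whereas the fat cell markers Adipoq, Plin1 and Lep did not exceed 2.65 CPM. Pik3r1 itself ranged from 74.5 to 182 CPM, with overlapping genotypes in each feeding state, and the level of a transcript with a nonsense change is no check of the genotype labels. The mouse numbers in the labels fall into 3 series. All 12 fed mice have middle numbers, while every fasted and refed group has 3 mice with lower and 3 with higher numbers, so a difference between fed and other mice and a difference between number series cannot be told apart. Comparisons among fasted and refed mice were also made within the lower and the higher series. Where a value named by a series involves fed mice, the fasted or refed mice of that series were set against all fed mice. In bulk liver, fewer cells of a type and less transcript per cell cannot be told apart.

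Acat1 was the most abundant of the 4 per kilobase of exon and rose on fasting in both genotypes. In fed wild-type livers it lay between 267 and 391 CPM with a median of 346, and in fasted wild-type livers between 533 and 757 with a median of 659. Fed WT/Y657* livers held 302 to 388 CPM with a median of 374, and fasted WT/Y657* livers held 421 to 690 with a median of 654. In each genotype every fasted mouse was above every fed mouse. The rise was 0.96 on the log2 scale in wild-type mice (SE 0.11, adjusted p = 9.68e-09) and 0.77 in WT/Y657* mice (SE 0.11, adjusted p = 8.23e-07), that is 1.94-fold and 1.70-fold. Of all genes tested, 32% were called between fasted and fed wild-type mice, 14.5% as higher and 17.5% as lower, and 32.9% were called in WT/Y657* mice, 15.2% as higher and 17.7% as lower. The responses of the genotypes differed by -0.19 (95% interval -0.50 to 0.12, adjusted p = 0.53).

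After 6 h of food Acat1 had not returned to the fed level. Refed wild-type livers held 514 to 652 CPM with a median of 597, and refed WT/Y657* livers held 443 to 638 with a median of 551, again above every fed mouse of the same genotype. Refed exceeded fed mice by 0.83 in WT mice (SE 0.11, adjusted p = 5.40e-07) and by 0.62 in WT/Y657* mice (SE 0.11, adjusted p = 5.07e-05), comparisons in which 27.5% and 26.1% of all genes were called. Refed against fasted mice gave -0.12 in WT mice (95% interval -0.34 to 0.097) and -0.15 in WT/Y657* mice (95% interval -0.37 to 0.071), and neither passed the test. The genotypes differed by 0.13 when fed, -0.062 when fasted and -0.088 when refed. The 95% intervals of these differences reached no further than 0.35 in either direction, and none passed the test.

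**Figure D1:**
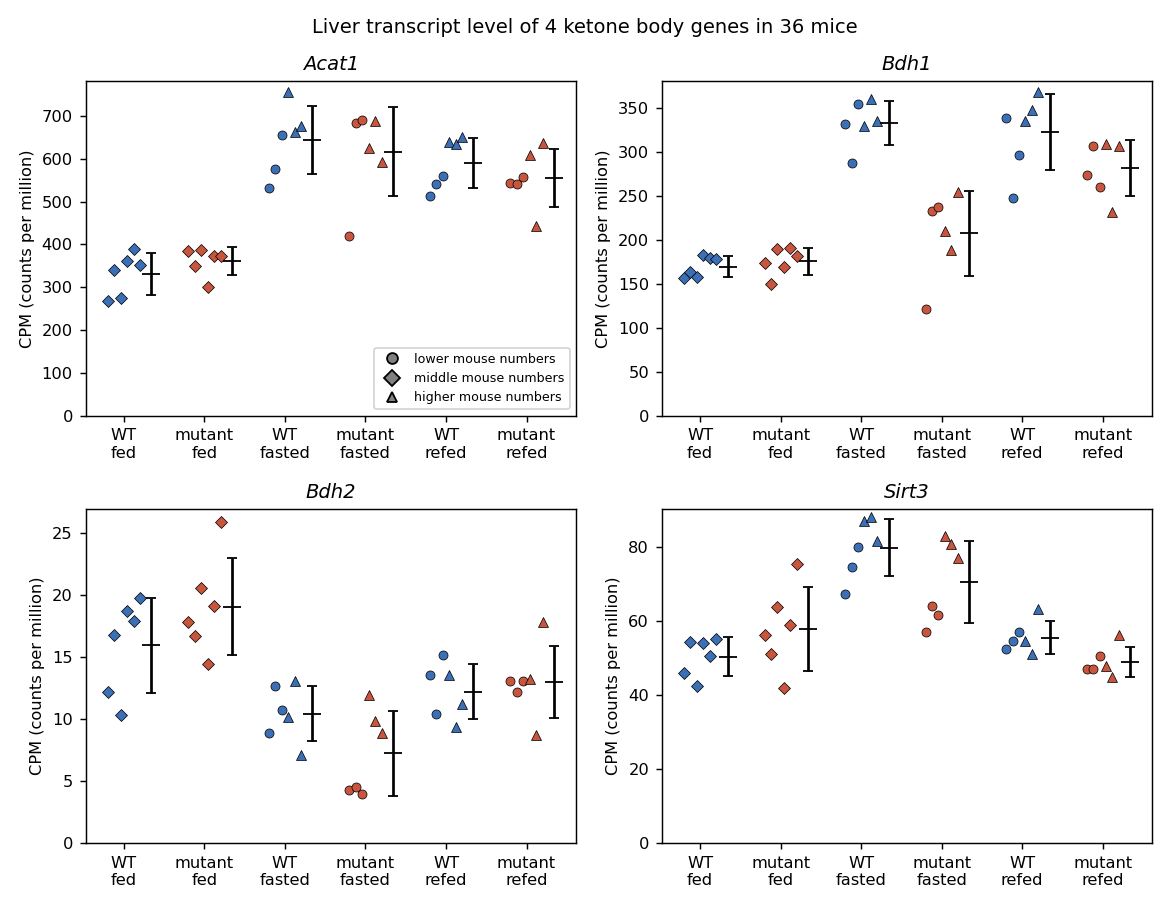
Transcript level in CPM (vertical axes, from 0) of Acat1, Bdh1, Bdh2 and Sirt3 in each of 36 livers, by genotype and feeding state (horizontal axes). Points are mice, their shape gives the mouse number series, and bars are the group mean ± SD (n = 6). Bdh1 in fasted mutant mice (121 to 255 CPM) lies below all fasted wild-type mice (288 to 360 CPM).

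Bdh1 rose on fasting in wild-type livers, and the rise in WT/Y657* livers did not pass the test. Its level was 156 to 183 CPM with a median of 171 in fed wild-type mice and 288 to 360 with a median of 333 in fasted wild-type mice. In WT/Y657* mice it was 149 to 191 CPM with a median of 178 when fed and 121 to 255 with a median of 222 when fasted. All 6 fasted wild-type mice were above all fed wild-type mice, whereas 4 fasted WT/Y657* mice were above and 1 was below all fed mice of their genotype. The fasting response was 0.97 on the log2 scale in wild-type mice (SE 0.11, 95% interval 0.74 to 1.20, adjusted p = 1.42e-08), or 1.96-fold. In WT/Y657* mice it was 0.24 (SE 0.11, 95% interval 0.012 to 0.47, adjusted p = 0.0996), or 1.18-fold. The difference between these responses was itself called, at -0.73 (SE 0.16, 95% interval -1.06 to -0.41, adjusted p = 0.0066). Of all genes tested, 4.35% were called for this difference, and Bdh1 was the only one of the 4 genes among them.

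The difference between genotypes was found in fasted mice. No fasted WT/Y657* mouse reached the lowest fasted wild-type mouse, and the group means were 208 ± 48.3 and 333 ± 25.4 CPM (SD, n = 6 each). The difference was -0.68 on the log2 scale (SE 0.11, 95% interval -0.91 to -0.45, adjusted p = 0.00012), a level 37.7% lower by the fit. Between fasted genotypes 13.1% of all genes were called, 6.43% as higher and 6.63% as lower in WT/Y657* mice. Bdh1 ranked 61 of 13945 by p. In fed mice, where 2.37% of genes were called, the genotypes differed by 0.051 (95% interval -0.18 to 0.28). In refed mice, where 0.0287% were called, they differed by -0.20 (95% interval -0.42 to 0.030, adjusted p = 0.60), with group ranges that overlapped.

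Within the lower number series the fasted difference in Bdh1 was -0.72 (adjusted p = 0.0047), and within the higher series it was -0.65 (adjusted p = 0.051). The fasting response differed between genotypes by -0.77 (adjusted p = 0.023) with the fasted mice of the lower series and by -0.70 (adjusted p = 0.13) with those of the higher series. The lowest Bdh1 level of all 36 mice, 121 CPM, was that of a fasted WT/Y657* mouse of the lower series. Without it the fasted difference was -0.57 and stayed called, and the fasting response of WT/Y657* mice became 0.36 (adjusted p = 0.0030).

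Refeeding moved Bdh1 in WT/Y657* mice. Refed WT/Y657* livers held 232 to 310 CPM with a median of 290, and 5 of the 6 were above every fasted mouse of that genotype. Refed wild-type livers held 248 to 368 CPM with a median of 337, across the range of the fasted wild-type mice. The refeeding response was 0.44 in WT/Y657* mice (SE 0.11, adjusted p = 0.0026) and -0.046 in wild-type mice (95% interval -0.27 to 0.18, adjusted p = 0.79). Of all genes 31.3% were called on refeeding of WT/Y657* mice, 17.1% as higher and 14.2% as lower, and 30.2% on refeeding of wild-type mice, 16.5% as higher and 13.7% as lower. The difference between these responses was 0.48 (95% interval 0.16 to 0.81) and did not pass the test (adjusted p = 0.10), in a comparison where 2.06% of genes were called. Within the higher series alone the response of WT/Y657* mice was 0.37 (adjusted p = 0.12). Refed mice exceeded fed mice by 0.93 in WT mice (adjusted p = 1.73e-07) and by 0.68 in WT/Y657* mice (adjusted p = 2.10e-05), with no overlap in either genotype.

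Zone markers of the liver lobule differed between genotypes in more than one feeding state. Of 5 markers of hepatocytes around the central vein (Glul, Oat, Cyp2e1, Cyp1a2 and Slc1a2), 4 were lower in fasted WT/Y657* than in fasted wild-type mice. Of all genes, 6.63% were called lower and 6.43% higher between fasted genotypes. The summed level of the 5 was 10781 to 13774 CPM in fasted wild-type and 2771 to 10517 CPM in fasted WT/Y657* mice, without overlap. Cyp2e1 had the highest mean of the 5 in every group and weighs most in these sums. Its mean in fasted wild-type mice was 8658 CPM, against 1905 CPM for Oat, the next highest. In refed mice none of the 5 was called, and the sums were 8679 to 10909 CPM for the wild type and 3846 to 7850 CPM for WT/Y657* mice, also without overlap. Taken singly, only Cyp2e1 separated the refed genotypes, with 5941 to 7907 CPM in wild-type and 2162 to 5397 CPM in WT/Y657* mice. In fed mice 1 of the 5 was lower in WT/Y657* mice, and the sums were 6010 to 7462 and 4281 to 6193 CPM, with overlap. The mean of Oat was higher in fed WT/Y657* than in fed wild-type mice (953 against 725 CPM). Bdh1 was not called between refed genotypes, where 0.0287% of all genes were called. Its refed levels overlapped, with 248 to 368 CPM in wild-type and 232 to 310 CPM in WT/Y657* mice. Bdh1 was also not called between fed genotypes, where 2.37% of all genes were called. Of the 4 portal markers (Hal, Sds, Cyp2f2 and Gls2) none was called between fasted genotypes, and their sums were 1485 to 1897 and 1223 to 2229 CPM. In fed mice 1 portal, 1 stellate and 1 lymphocyte marker, of 4 tested in each list, were called higher in WT/Y657* mice. The part of the central vein markers in the levels of Bdh1 and Bdh2 was not tested. Of 6 general hepatocyte markers, 1 was lower in fasted WT/Y657* mice, namely Cyp2e1, which is also in the central vein list. Markers of bile duct, endothelial, Kupffer, stellate, lymphoid, pancreatic and red blood cells were also not called between fasted genotypes. On fasting of wild-type mice 3 of 4 endothelial, 1 of 4 stellate and 1 of 4 lymphocyte markers were called higher, and on fasting of WT/Y657* mice none of these was called higher and 1 stellate marker was lower. Of all genes, 14.5% were called higher and 17.5% lower on fasting of wild-type mice. On fasting of WT/Y657* mice 15.2% were called higher and 17.7% lower. These shares apply to every fasting count of markers given here. Endothelial sums were 204 to 274 CPM in fed and 286 to 329 CPM in fasted wild-type mice, against 236 to 285 and 266 to 323 CPM in WT/Y657* mice. Of the 5 central vein markers 2 were called higher and 1 lower on fasting of each genotype. Of the 6 hepatocyte markers 2 were called higher in each genotype and 1 lower in WT mice. On fasting 1 bile duct and 1 pancreas marker were called lower in each genotype. For portal markers 1 was called lower in WT and 2 in WT/Y657* mice. The part of these markers in the fasting responses was not tested, and calls in 1 genotype only are no test of a difference between genotypes.

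Within a mouse, the count of Bdh1 relative to that of Acat1 does not depend on how libraries are scaled. The log2 ratio was -1.59 ± 0.23 in fasted WT/Y657* mice (SD, n = 6) and lay between -1.87 and -1.21. In fasted wild-type mice it was -0.94 ± 0.17, between -1.20 and -0.68. The mean ratio of the 4 fed and refed groups was between -1.04 and -0.88. All 6 fasted WT/Y657* mice lay below all 6 fasted wild-type mice in this ratio. The ratio of Bdh1 to Sirt3 overlapped slightly, with 1.92 to 2.30 in fasted wild-type and 1.09 to 1.94 in fasted WT/Y657* mice. The ratio of Bdh1 to Bdh2 was 5.02 ± 0.36 and 4.94 ± 0.72 in these groups (SD, n = 6 each) and overlapped widely.

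**Figure D2:**
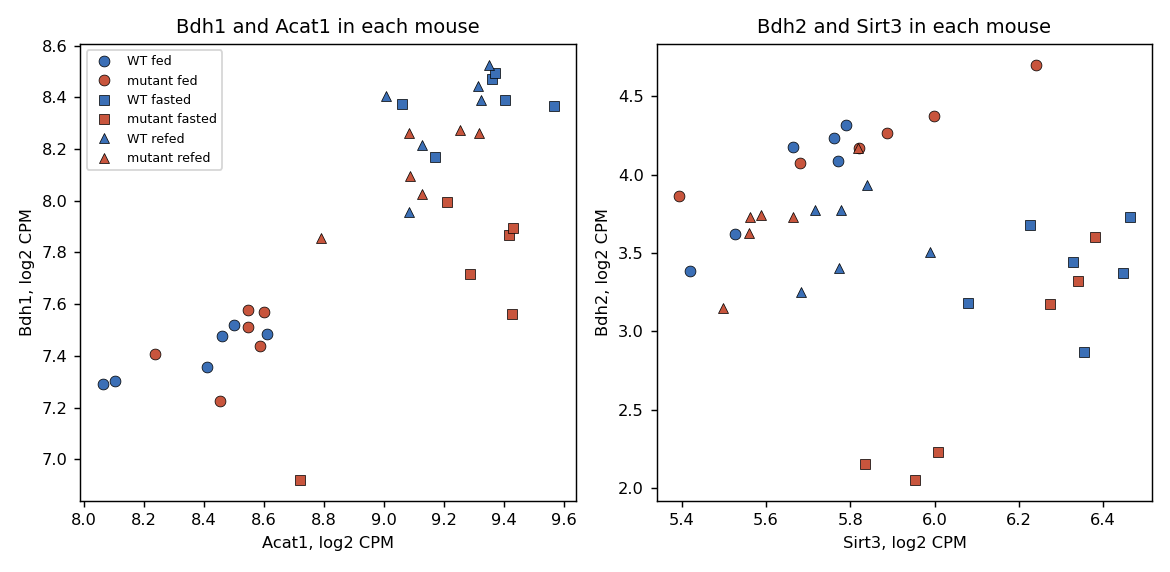
Log2 CPM of Bdh1 against Acat1 (left) and of Bdh2 against Sirt3 (right), 1 point per mouse, with shape for feeding state and colour for genotype. In the left panel the fasted mutant mice lie below the other mice of like Acat1 level, and in the right panel 3 fasted mutant mice have the lowest Bdh2 levels, 4.0 to 4.55 CPM.

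Bdh2 went the other way from Bdh1 and Acat1, falling on fasting in both genotypes. It was the lowest of the 4 genes, with 41 to 410 counts in a library. Fed wild-type livers held 10.3 to 19.7 CPM with a median of 17.4, and fasted wild-type livers held 7.15 to 13.1 with a median of 10.5, so that the groups overlapped. Fed WT/Y657* livers held 14.4 to 25.8 CPM with a median of 18.4, and fasted WT/Y657* livers held 4.0 to 12 with a median of 6.71, with no overlap. The response was -0.61 in wild-type mice (SE 0.22, adjusted p = 0.030) and -1.40 in WT/Y657* mice (SE 0.22, adjusted p = 7.35e-06). The fall in wild-type mice was no longer called with no filter on low counts (adjusted p = 0.061) and in 5 of 12 fits that left out a mouse. It was also not called with only the fasted mice of the lower series against all fed mice (adjusted p = 0.053). The response differed between genotypes by -0.79 (95% interval -1.41 to -0.16), which did not pass the test over all genes (adjusted p = 0.14).

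The fasted WT/Y657* mice were split in Bdh2 by number series. The 3 mice of the lower series held 4.31, 4.55 and 4.0 CPM, and the 3 of the higher series held 12, 9.83 and 8.87 CPM. Fasted wild-type mice held 8.91 to 12.7 CPM in the lower and 7.15 to 13.1 CPM in the higher series. The genotype difference in fasted mice was -0.53 over all mice (SE 0.23, adjusted p = 0.12), -1.33 within the lower series (SE 0.27, adjusted p = 0.0021) and 0.0078 within the higher series (SE 0.25, adjusted p = 0.99). The difference between these 2 values was -1.34 (SE 0.37, unadjusted p = 0.00087) and did not pass the test over all genes (adjusted p = 0.97), in which 0 of 13945 genes were called by edgeR and 676 had an unadjusted p under 0.05. It was tested after the split had been seen.

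On refeeding Bdh2 rose in WT/Y657* mice, to 8.73 to 17.8 CPM with a median of 13.1. The change was 0.84 (SE 0.22, adjusted p = 0.0038), and 5 of 6 refed mice were above every fasted mouse of the genotype. It was 1.58 within the lower series (adjusted p = 4.62e-05) and 0.37 within the higher series (adjusted p = 0.34). Refed wild-type livers held 9.39 to 15.1 CPM with a median of 12.4, a change of 0.22 (95% interval -0.22 to 0.66, adjusted p = 0.49). Refed WT/Y657* mice stayed 0.55 below fed mice, as a log2 change of -0.55 (adjusted p = 0.048), while the same comparison gave -0.39 in wild-type mice (adjusted p = 0.18). The call in WT/Y657* mice was lost in 10 of 12 fits that left out a mouse, with library size alone (adjusted p = 0.071) and with no filter (adjusted p = 0.092). It was also lost with only the refed mice of the higher series against all fed mice (adjusted p = 0.077). Genotypes differed by 0.26 when fed (95% interval -0.16 to 0.69) and by 0.096 when refed (95% interval -0.34 to 0.53), neither called.

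Sirt3 rose on fasting in both genotypes and was back near the fed level after refeeding. Fed wild-type livers held 42.6 to 55.1 CPM with a median of 52.3, and fasted wild-type livers held 67.5 to 88.1 with a median of 80.9, all above the fed mice. Fed WT/Y657* livers spread more widely, from 41.9 to 75.5 CPM with a median of 57.7, and fasted ones held 57.0 to 83.2 with a median of 70.7. Only 3 fasted WT/Y657* mice were above all fed ones. The rise was 0.66 in WT mice (SE 0.10, adjusted p = 2.76e-06) and 0.29 in WT/Y657* mice (SE 0.10, adjusted p = 0.027), called in 7 of 12 fits that left out a mouse, with a difference of -0.38 between genotypes (95% interval -0.67 to -0.086, adjusted p = 0.13). The rise in WT/Y657* mice was 0.072 with the fasted mice of the lower series (adjusted p = 0.69) and 0.47 with those of the higher series (adjusted p = 0.0017). The 3 fasted WT/Y657* mice of the lower series, at 57.0 to 64.2 CPM, were the ones with the low Bdh2.

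After 6 h of food Sirt3 lay between 51.2 and 63.4 CPM with a median of 54.7 in wild-type mice and between 45.1 and 56.3 with a median of 47.5 in WT/Y657* mice. All refed mice were below all fasted mice of their genotype. The log2 change was -0.52 in WT mice (SE 0.10, adjusted p = 0.00012) and -0.53 in WT/Y657* mice (SE 0.10, adjusted p = 9.53e-05). The difference between these responses was -0.0069 (95% interval -0.30 to 0.28). In the lower series the change in WT/Y657* mice was -0.34 (adjusted p = 0.059). Refed mice differed from fed mice by 0.14 in WT mice (95% interval -0.067 to 0.34) and by -0.24 in WT/Y657* mice (95% interval -0.45 to -0.039, adjusted p = 0.071), neither called. Genotypes differed by 0.20 when fed, by -0.18 when fasted and by -0.18 when refed, none of these called, although 5 of 6 refed WT/Y657* mice lay below every refed wild-type mouse.

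**Figure D3:**
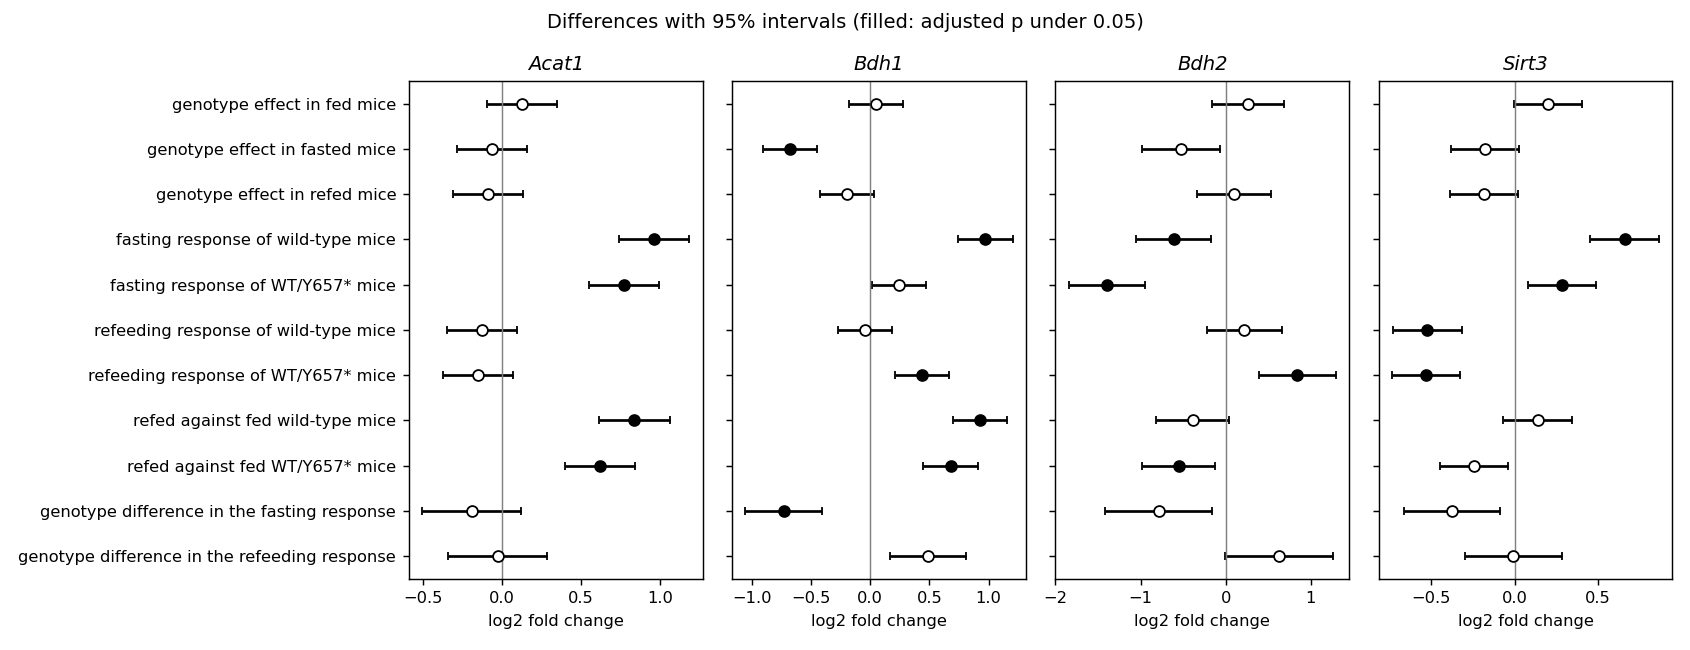
Log2 fold change (horizontal axes, each gene on its own scale) of the 4 genes in 11 comparisons (rows), with 95% intervals from the fit over all genes. Filled points passed an adjusted p of 0.05. All 4 genes were called in the fasting response of wild-type mice, and Bdh1 alone was called for the genotype effect in fasted mice.

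Over the 11 comparisons 18 of 44 values were called. On fasting, all 4 genes were called in wild-type mice (32% of all genes) and 3 in WT/Y657* mice (32.9%). On refeeding, wild-type mice had 1 call (30.2%) and WT/Y657* mice had 3 (31.3%), and between refed and fed mice 2 (27.5%) and 3 (26.1%). Genotype comparisons had fewer calls both among the 4 genes and over all genes, where 0.0287% to 13.1% were called. Per kilobase of exon the order of mean levels in fasted wild-type mice was Acat1 with 171 CPM per kb, Bdh1 with 85.7, Sirt3 with 13.4 and Bdh2 with 2.46. In fasted WT/Y657* mice it was 164, 53.4, 11.8 and 1.71, the same order. The order of the 6 group means ran from fasted wild-type at the top to fed wild-type at the bottom for Acat1 and Bdh1, which both spanned less than 2-fold (1.94 and 1.96). Fasted and refed wild-type mice, next to each other at the top for Bdh1, did not differ beyond their spread. For Bdh2 the top was fed WT/Y657* and the bottom fasted WT/Y657*, a ratio of 2.63 between means.

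Levels in single mice were compared as a description over the 36 livers, which share feeding state and series. Log2 CPM of Bdh1 and Acat1 had a Pearson r of 0.79 (rho 0.72), and 0.68 after group means were taken out. Bdh2 and Sirt3 had an r of -0.16 over all mice and 0.75 after group means were taken out. The genes with a profile most like that of Bdh1 were Hadh (r = 0.91), the hydroxyacyl-CoA dehydrogenase of mitochondrial fat oxidation, Atp9a (0.89) and Eci1 (0.88), an enoyl-CoA isomerase. Those most like Acat1 were Decr1 (0.97), a dienoyl-CoA reductase, Eci1 (0.97) and Acadm (0.96), the medium-chain acyl-CoA dehydrogenase. Those most like Bdh2 were Pecr (0.84), a peroxisomal enoyl-CoA reductase, Bco2 (0.84), a carotenoid oxygenase, and Hsd3b2 (0.83), and those most like Sirt3 were Pbld1 (0.87), Brap (0.86) and Tmem59 (0.86).

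Of 15 genes that carry fatty acids into mitochondria and oxidise them to acetyl-CoA, 13 rose and none fell on fasting of wild-type mice, with a median of 0.94 against 0.010 over all genes tested. Of all genes 14.5% rose and 17.5% fell. In WT/Y657* mice 11 rose and none fell (15.2% and 17.7% of all genes), with a median of 0.77 against -0.0079. Cpt1a, which controls entry of fatty acids into mitochondria, rose by 1.60 in WT and 1.34 in WT/Y657* mice, and Hadhb, a subunit of the trifunctional protein, by 1.22 and 1.08. Between fasted genotypes 3 of the 15 were lower in WT/Y657* mice and none higher, against 6.63% and 6.43% of all genes (median -0.19 against 0.0021). They were Hadh at -0.45 (adjusted p = 0.0017), Cpt2 at -0.29 (adjusted p = 0.026) and Acaa2, a thiolase, at -0.31 (adjusted p = 0.029). The Bdh1 difference of -0.68 was larger than each of these. On refeeding 4 fell in WT and 3 in WT/Y657* mice, Cpt1a by -0.92 and -0.77, and 11 of 15 were still above the fed level in each genotype. Of all genes 13.7% and 14.2% fell on refeeding, and 27.5% and 26.1% were called in either direction between refed and fed mice.

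**Figure D4:**
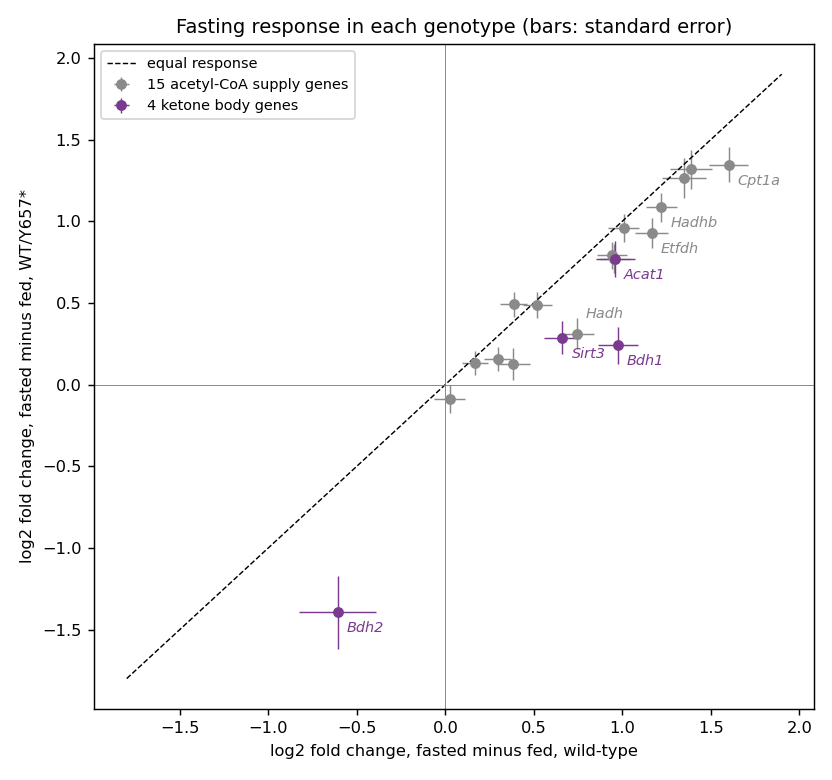
Log2 fold change between fasted and fed mice in WT mice (horizontal) and WT/Y657* mice (vertical) for the 4 ketone body genes and 15 genes that supply acetyl-CoA, with standard errors. The dashed line marks an equal response, and Bdh1 (0.97 and 0.24) lies below it while Acat1 (0.96 and 0.77) lies nearer to it.

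Other genes of ketone body metabolism and transport numbered 11, of which 8 were tested. On fasting 4 rose and 2 fell in each genotype, with medians of 0.42 in WT and 0.26 in WT/Y657* mice. Of all genes 14.5% rose and 17.5% fell in WT mice, and 15.2% and 17.7% in WT/Y657* mice. The monocarboxylate carriers Slc16a1 and Slc16a7, a family that moves ketone bodies across membranes, rose by 1.20 and 1.40 in wild-type mice and by 1.05 and 1.19 in WT/Y657* mice. On refeeding Slc16a1 fell in both genotypes (-1.30 and -1.24), and Aacs, which activates acetoacetate in the cytosol, rose by 3.71 and 4.05. Between fasted genotypes 1 of the 8 was lower in WT/Y657* mice and none was higher, with a median of -0.20. This 1 call in 8 is near the 13.1% called over all genes, 6.63% as lower and 6.43% as higher. None of the 8 was called between fed or refed genotypes, or for a genotype difference in the fasting or the refeeding response. All 8 differences in fasting response were negative, from -0.50 to -0.13 (median -0.21 against -0.012 over all genes). Of the 15 acetyl-CoA supply genes 1 difference was positive and none was called (median -0.14).

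The other 7 thiolases, relatives of Acat1 in reaction, were less uniform than Acat1 on fasting. In wild-type mice 4 rose and 1 fell, against 14.5% and 17.5% of all genes, and in WT/Y657* mice 3 rose and 3 fell, against 15.2% and 17.7%. Acaa1a, a peroxisomal thiolase, rose by 0.95 and 0.82, whereas the cytosolic thiolase Acat2 had a log2 change of -0.99 in wild-type mice. Between fasted genotypes Acat3 at -0.28 and Acaa2 were lower in WT/Y657* mice and none was higher, with a median of -0.31, against 6.63% and 6.43% of all genes. For the genotype difference in the fasting response none of the 7 was above 0 (median -0.25). Of them 1 was called, as lower, where 4.35% of all genes were called.

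Of the 6 other sirtuins, 1 was called on fasting of each genotype, where 32% (WT) and 32.9% (WT/Y657*) of all genes were called. Sirt6 rose by 0.64 in wild-type mice (adjusted p = 0.029), at low means of 1.81 CPM when fed and 2.84 CPM when fasted. Sirt5, like Sirt3 a mitochondrial member, was 0.55 lower on fasting of WT/Y657* mice, as a log2 change of -0.55 (adjusted p = 0.0021). On refeeding Sirt5 rose in both genotypes, by 0.42 and 0.70, where Sirt3 fell, and Sirt1 fell as Sirt3 did (-0.41 and -0.45). Of 10 genes for reported Sirt3 substrates, 5 were lower and none higher in fasted WT/Y657* than in fasted wild-type mice, with a median of -0.21, against 6.63% lower, 6.43% higher and a median of 0.0021 over all genes. Aldh2, the mitochondrial aldehyde dehydrogenase, was at -0.47, Sdha, a subunit of succinate dehydrogenase, at -0.39 and Sod2, the mitochondrial superoxide dismutase, at -0.27. For the genotype difference in the fasting response none of the 10 was above 0 (median -0.25). Of them 1 was called, as lower, where 4.35% of all genes were called. These are transcript levels, and acetylation was not measured here.

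Of 8 regulators of ketone body synthesis, 2 were lower and none higher in fasted WT/Y657* than in fasted wild-type mice, where 6.63% of all genes were lower and 6.43% higher. Ppara, the nuclear receptor that switches on fat oxidation genes in fasting, was at -0.55 (adjusted p = 0.00033), and the forkhead factor Foxa2 at -0.93 (adjusted p = 0.0014). The mean of Ppara was also lower in WT/Y657* mice when fed (119 against 151 CPM) and refed (140 against 176 CPM), while that of Foxa2 was not. Of the 8, 1 was called lower and none higher between fed genotypes (2.37% of all genes called), and none between refed genotypes. Between fed genotypes 2 of the 8 differences were above 0. Fed levels of Ppara overlapped, with 123 to 171 CPM in wild-type and 105 to 131 CPM in WT/Y657* mice. Those of the nuclear receptor Rxra did not, with 470 to 547 and 386 to 435 CPM. On fasting of wild-type mice 5 rose and none fell (14.5% and 17.5% of all genes), among them Ppara by 0.70, Mlycd, which breaks down malonyl-CoA, by 0.53 and Creb3l3 by 0.65. In WT/Y657* mice 6 rose and 1 fell (15.2% and 17.7% of all genes), with Creb3l3 at 0.78, Mlycd at 0.45 and the coactivator Ppargc1a at 0.99. The median of the 8 was -0.071 between fasted genotypes. For the genotype difference in the fasting response 4 of the 8 were above 0, with 1 called higher and 1 called lower, where 4.35% of all genes were called.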

How the data were processed

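Liver RNA from 36 mice was sequenced on an Illumina HiSeq 4000 with single reads of 50 bases after a stranded total RNA preparation. The authors deposited estimated counts per gene, of which 3.64% of values above 0 were not whole. The submitters' processing notes name Cuffdiff, SAMtools, featureCounts and edgeR and the build mm9, with no versions, whereas the loci in the table are those of GRCm38. A second deposited table of fitted values per condition was not used. The counts were rounded to whole numbers. Testing used edgeR 4.0.16 (R 4.3.3), with filterByExpr on the 6 groups as the filter on low counts and TMM as the scaling. A single robust glmQLFit model had a coefficient for each group and took in every library. Each contrast was tested two-sided with glmQLFTest and adjusted by the Benjamini-Hochberg method over 13945 genes, with a threshold of 0.05. "Called" means an adjusted p under that threshold. Intervals are 95% intervals of the fit. Beyond genotype and feeding state, the labels tell the mice themselves apart only by 1 number each. Each library comes from 1 mouse, so p-values measure the spread between these mice.

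The 4 genes and the gene lists were chosen with earlier results of these data known. Of each list at most the 3 called genes with the smallest p per comparison are named, and for each of the 4 genes the 3 with the highest Pearson r of log2 CPM (prior count 2) at a mean of at least 1 CPM. Some results planned under this rule are not reported here. Alternatives were DESeq2 1.42.0, the edgeR likelihood ratio test, limma-voom (limma 3.58.1), other scalings, other filters, the compared groups alone, number series as a covariate and leaving out each mouse, and, chosen after seeing the data, each number series alone and the difference between them. The procedure was tested on simulated counts with known changes. Positions and exon lengths come from GENCODE M21 on GRCm38, and promoter windows from RefSeq.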

Additional observations from a re-analysis of the deposited data

Results flagged for a closer look

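Acat1 in 1 fasted WT/Y657* mouse of the lower number series was 421 CPM, against 592 to 690 CPM in the other fasted WT/Y657* mice. Its gap to the next mouse on the log2 scale was 0.69 of the range of the group, over the critical value of 0.625 for 6 mice. It was the only such value among 24 groups of 6 mice, where chance alone gives about 1 in 20. The same mouse had the lowest Bdh1 level of its group, 121 CPM against 189 to 255 CPM, and the lowest Sirt3 level, 57.0 CPM.

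The fasting response of Bdh1 differed between genotypes by -0.73 on the log2 scale (adjusted p = 0.0066), with 0.97 in WT and 0.24 in WT/Y657* mice, by the test of the difference itself.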

How the results depend on the processing

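Of 452 values of the 4 genes under settings other than leaving out 1 mouse, 424 kept their direction and their side of the threshold, 13 were no longer called, 2 became called and 13 changed sign. With 1 mouse left out these numbers were 577, 20, 6 and 21 of 624. No value was called in a fit in which its sign changed. The Sirt3 difference in refeeding response was 0.0014 with limma-voom, 0.018 with library size alone, 0.0015 with no filter, 0.0022 with the series covariate, 0.098 in the lower series and -0.062 to 0.046 leaving out single mice. That of Acat1 was 0.0024 with library size alone, 0.0017 in the lower series and -0.11 to 0.032 leaving out single mice. Acat1 between genotypes was 0.024 (fasted) and 0.025 (refed) in the lower series, and between fasted genotypes -0.11 to 0.026 leaving out single mice. Bdh2 was -0.022 between refed genotypes in the lower series (-0.012 to 0.19 leaving out single mice) and 0.0078 between fasted genotypes in the higher series. Bdh1 on refeeding of wild-type mice was 0.027 with library size alone, 0.037 in the higher series and -0.095 to 0.018 leaving out single mice.

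Calls were lost for Sirt3 on fasting of WT/Y657* mice (0.23 with library size alone, 0.29 with only the groups compared, 0.072 in the lower series), Sirt3 on their refeeding (-0.34, lower series), Bdh2 on fasting of wild-type mice (-0.61 with no filter, -0.57 in the lower series), Bdh2 between refed and fed WT/Y657* mice (-0.51 with library size alone, -0.56 with no filter, -0.53 in the higher series), and in the higher series Bdh1 between fasted genotypes (-0.65), Bdh1 and Bdh2 on refeeding of WT/Y657* mice (0.37 and 0.37) and the Bdh1 difference in fasting response (-0.70). The lower and the higher series each hold 3 mice a group and no fed mice. Series values that involve fed mice, here and below, used all fed mice, which have middle numbers. Bdh2 became called in the lower series between fasted genotypes (-1.33) and for the difference in fasting response (-1.59). Leaving out single mice, Bdh1 between fasted genotypes (-0.75 to -0.57) and its difference in fasting response (-0.80 to -0.62) stayed called in every fit. Ranges for values whose call changed were 0.17 (without a fasted mouse of the higher series) to 0.36 (without the fasted mouse lowest in Bdh1) for Bdh1 on fasting of WT/Y657* mice, 0.21 to 0.37 for Sirt3 on fasting of WT/Y657* mice (called in 7 of 12 fits), -0.32 to -0.15 for Sirt3 between refed and fed WT/Y657* mice, -0.45 to -0.29 for the Sirt3 difference in fasting response, -0.73 (without the fasted WT/Y657* mouse highest in Bdh2) to -0.40 (without the one lowest in Bdh2) for Bdh2 between fasted genotypes, -0.71 to -0.52 for Bdh2 on fasting of wild-type mice (called in 7 of 12), -0.66 to -0.45 for Bdh2 between refed and fed WT/Y657* mice (called in 2 of 12) and -0.99 to -0.66 for the Bdh2 difference in fasting response.

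Genes called between fed genotypes, 330 in the reported fit, numbered 644 with DESeq2, 516 with the likelihood ratio test, 756 with library size alone, 207 with no filter, 30 with only the groups compared and 68 to 9.0e+02 (rounded) leaving out single mice, both ends without a WT/Y657* mouse. Between refed genotypes they were 25, 18 and, with the series covariate, 12, with 1 in the lower and 0 in the higher series (edgeR, where 1217 had an unadjusted p under 0.05) and 1 to 6 leaving out single mice. Between fasted genotypes they were 1018 in the lower and 73 in the higher series (1168 to 2003 leaving out single mice). The differences in response gave 386 (fasting) and 152 (refeeding) with no filter, 164 (refeeding) in the lower, 28 and 0 in the higher series (932 at an unadjusted p under 0.05 for the latter), and 409 to 745 and 124 to 391 leaving out single mice. On refeeding 2541 (WT, lower), 1926 (WT, higher) and 1948 (WT/Y657*, higher) were called, and 2250 between refed and fed WT/Y657* mice in the higher series. The cause was not tested. No paired analysis was possible because each mouse number occurs once.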
